A study of Rattus norvegicus with 15 samples.

Results

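Hnrnpa2b1 encodes hnRNP A2 and its splice form hnRNP B1, so it is the mRNA of the very protein that the antibody precipitated here. It was chosen by its Ensembl identifier, ENSRNOG00000011175, which was 1 of 30560 gene identifiers in each count table. The symbol came with that identifier and the count tables carry no names, so the pairing of both was not checked here.

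The libraries came from rat oligodendrocytes, the myelin-making cells of the central nervous system, grown from precursors of newborn Sprague-Dawley forebrain cortex and kept for 3 days in a defined maturation medium. There were 5 groups of 3 libraries, numbered 2, 3 and 4: total RNA (input) of control cultures, input of cultures given oligomeric amyloid-β, RNA recovered with an antibody to hnRNP A2 from control cultures, the same from amyloid-β cultures, and RNA recovered with IgG. No genetic change is named for any group. For IgG the labels name a pool of the treatments, although the file names bear the amyloid-β mark. The sources used here do not give the dose and duration of amyloid-β on the cells or the immunoprecipitation protocol, and markers of oligodendrocytes or other cells could not be checked because no other identifier could be named. Gene counts per library ranged from 14773400 to 25751522 for input, 28056346 to 33168494 for hnRNP A2 and 81463 to 4096829 for IgG, where replicate 2 was the shallowest.

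hnRNP A2 and B1 are nuclear RNA-binding proteins that also act in the cytoplasm. They carry paired RNA recognition motifs and a glycine-rich tail. In oligodendrocytes hnRNP A2 is known for binding a short element in the mRNA of myelin basic protein and for travelling with it in transport granules into the cell processes, where translation follows. RNA-binding proteins of this family are also known to act on the splicing of transcripts, including their own. A count per gene joins the A2 and B1 forms and says nothing of the protein.

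Hnrnpa2b1 mRNA was measured well in every deep library. It made up a larger part of the RNA in each hnRNP A2 library than in each IgG library. Of all genes tested, 18.2% did so, and whether the difference passed a test hung on single libraries, as given below. In control input Hnrnpa2b1 had 4541, 5851 and 1755 counts in replicates 2, 3 and 4, and in amyloid-β input 5060, 11377 and 4369. In the hnRNP A2 immunoprecipitation it had 15709, 13258 and 20058 counts in control and 18288, 12694 and 17083 in amyloid-β. In the IgG libraries it had 23, 1039 and 489 counts. The 23 counts of IgG replicate 2 carry an exact Poisson 95% interval of 14.6 to 34.5 counts, which is 179 to 424 CPM, the counts scaled to a fixed total of gene counts, while IgG replicates 3 and 4 had intervals of 238 to 269.5 and 236 to 282 CPM. Such intervals cover counting error only.

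Levels were set on a common scale as CPM after trimmed-mean (TMM) scaling over all 15 libraries, a scaling that assumes most genes hold the same share. With IgG the level was 219.5, 223 and 236 CPM in replicates 2, 3 and 4, a mean of 226 ± 8.41 CPM (SD, n = 3). In control input it was 271, 301 and 175 CPM (249 ± 65.9, SD, n = 3). In amyloid-β input it was 291, 507 and 263 CPM (354 ± 134, SD, n = 3). In the hnRNP A2 libraries it was 468, 343 and 528 CPM with amyloid-β (446 ± 94.7, SD, n = 3) and 434, 379 and 556 CPM in control (457 ± 90.7, SD, n = 3). The 6 hnRNP A2 libraries thus lay above the 3 IgG libraries without overlap, and the 3 control hnRNP A2 libraries lay above the 3 control input libraries. Of all genes tested, 18.2% did the first and 27.0% did the second. The order of the group means was IgG, control input, amyloid-β input, amyloid-β hnRNP A2 and control hnRNP A2. Each neighbouring pair in that order overlapped in its single libraries.

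**Figure D1:**
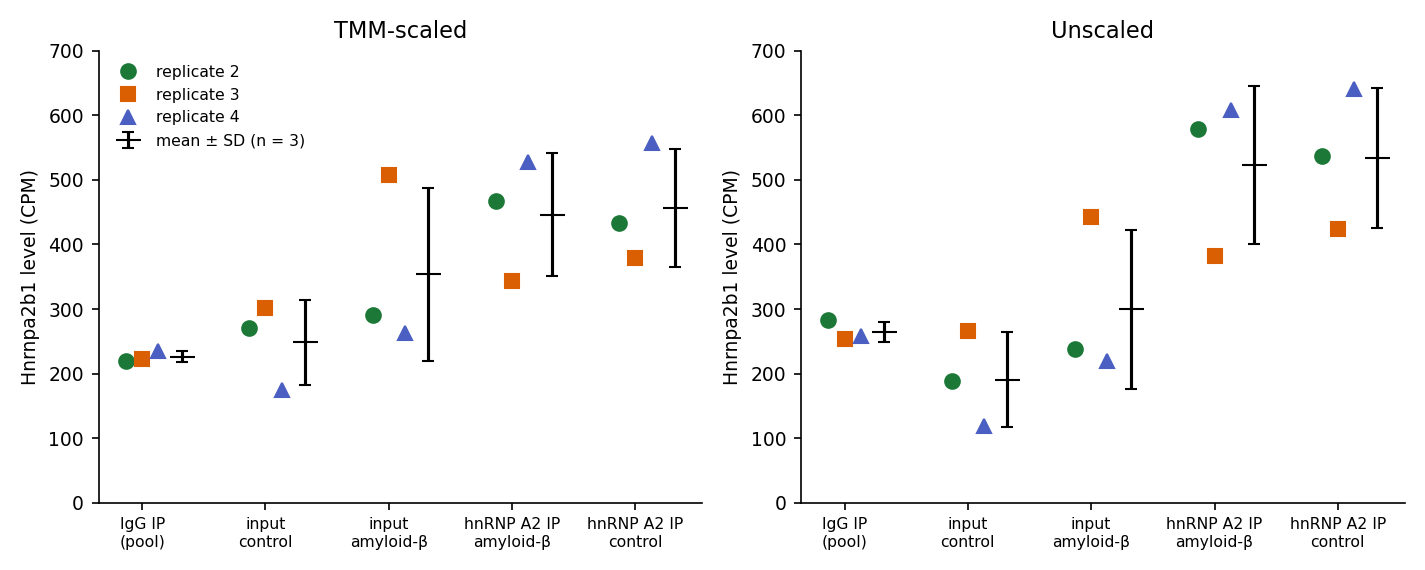
Level of Hnrnpa2b1 mRNA in each of the 15 libraries, in CPM, with TMM scaling (left) and as a plain share of gene counts (right). Points are single libraries, marked by replicate number, and bars give mean ± SD (n = 3). The 6 hnRNP A2 libraries sit above all 3 IgG libraries on both scales. With TMM scaling 18.2% of all genes tested do so. IgG replicate 2 rests on 23 counts. Its Poisson 95% interval of 179 to 424 CPM, unscaled, reaches past amyloid-β hnRNP A2 replicate 3 at 383 CPM. Replicate 3 is the highest input and the lowest hnRNP A2 library of each treatment.

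The scale mattered most for input. As a plain share of gene counts, without TMM scaling, control input held 188, 265 and 119 CPM and amyloid-β input 238, 442 and 219 CPM. The hnRNP A2 libraries held 538, 424 and 641 CPM in control and 579, 383 and 609 CPM with amyloid-β, and the IgG libraries 282, 254 and 258 CPM. On this scale the IgG mean of 265 ± 15.5 CPM (SD, n = 3) lay above that of control input, 191 ± 73.3 CPM (SD, n = 3), while after TMM scaling it lay below. Beside this, the share of gene counts in the top 10 genes was 19.9% to 41.6% for input, 6.05% to 8.59% for hnRNP A2 and 7.10% to 16.1% for IgG. Alignments to several places made up 46.8% to 67.2% of aligned records in input and 13.9% to 28.4% with hnRNP A2. With IgG they made up 75.7%, 25.5% and 54.3% in replicates 2, 3 and 4. Their part in the level of Hnrnpa2b1 was not tested.

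The spread of Hnrnpa2b1 within the input and hnRNP A2 groups lay near the middle of that of all genes tested, whatever their level. Its SD on the log2 scale was 0.42 in control input and 0.51 in amyloid-β input, above that of 54.9% and 55.1% of 15303 genes. In the hnRNP A2 libraries it was 0.28 in control and 0.32 with amyloid-β, above that of 52.5% and 59.8% of genes. In the IgG libraries it was 0.05, above only 2.64% of genes, although 23 counts in replicate 2 do not fix a level that closely.

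The input comparison asks whether amyloid-β altered the share of this mRNA in the RNA of the cells. In 3 of 3 same-numbered pairs the amyloid-β library had the higher level, by 0.10, 0.75 and 0.59 on the log2 scale in replicates 2, 3 and 4. The single libraries of both groups overlapped, since amyloid-β replicates 2 and 4 lay below control replicate 3. The fitted change was 1.42-fold (log2 fold change 0.51, SE 0.36) and did not pass edgeR's quasi-likelihood test (Benjamini-Hochberg adjusted p = 0.954 over 13793 genes). Its 95% interval ran from 0.820-fold to 2.47-fold, which includes no change as well as a 2-fold rise. With the replicate number as a block the interval narrowed to 0.988-fold to 1.95-fold, and the test again did not pass (edgeR adjusted p = 0.439). In bulk RNA a change in the cells present and a change of RNA per cell cannot be told apart.

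No gene passed in that comparison, so 0% of the genes tested were called by edgeR, with 188 at an unadjusted p under 0.05. The replicate block also gave 0 calls, but put 1625 genes at that level. DESeq2 and voom, run without the block, called 0 genes, with 335 and 210 at that level. The log2 fold change of Hnrnpa2b1 lay above that of 86.7% of the genes, against a median of -0.01. With voom's quality weights, which give less weight to libraries that stand apart, it was 0.16 in place of 0.51. Without amyloid-β input replicate 3 it was 0.13 and without control input replicate 4 it was 0.30, and the other 4 fits that left out a library gave 0.54 to 0.68.

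Among RNA recovered with hnRNP A2, the group means with and without amyloid-β, 446 and 457 CPM, lay well within the spread of either group. Amyloid-β over control was 1.08-fold in replicate 2, 0.904-fold in replicate 3 and 0.949-fold in replicate 4, so the pairs did not share a direction. The fitted log2 fold change was -0.04 (SE 0.22, edgeR adjusted p = 1.000 over 15118 genes), a fold of 0.973 with a 95% interval of 0.683 to 1.38. With the replicate block the interval was 0.872-fold to 1.08-fold (edgeR adjusted p = 0.948). The direction turned without amyloid-β hnRNP A2 replicate 3 (log2 fold change 0.12) and without control hnRNP A2 replicate 4 (0.12). edgeR called 0% of the genes tested, and 42 had an unadjusted p under 0.05. With the replicate block it called 1 gene, not Hnrnpa2b1, and 888 were under that level. DESeq2 and voom, run without the block, called 0 genes, and 35 and 133 were under that level.

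**Figure D2:**
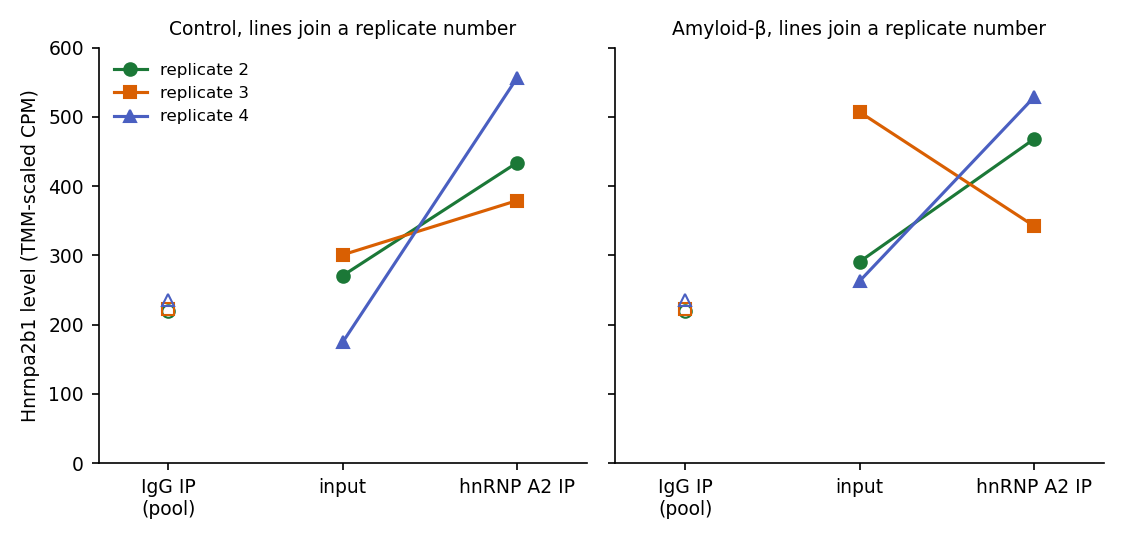
TMM-scaled level of Hnrnpa2b1 mRNA (CPM) in input and in the hnRNP A2 immunoprecipitation of control (left) and amyloid-β (right) cultures, with lines joining libraries of the same replicate number. Open symbols are the 3 IgG libraries, shown in both panels. The line rises in 5 of 6 pairs and falls, from 507 to 343 CPM, in amyloid-β replicate 3.

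The comparison of the immunoprecipitation with its own input asks whether the mRNA made up a larger share of the recovered RNA than of input RNA. In control cultures it was higher in the hnRNP A2 library of each of the 3 numbers, 1.60-fold in replicate 2, 1.26-fold in replicate 3 and 3.18-fold in replicate 4. The fitted difference was 1.85-fold (log2 fold change 0.89, SE 0.30, 95% interval 1.17-fold to 2.91-fold) and passed (edgeR adjusted p = 0.0354 over 15303 genes). Being higher in the immunoprecipitation was common: 19.0% of genes were called higher and 18.4% lower, and in 27.0% every control hnRNP A2 library lay above every control input library. Hnrnpa2b1 lay above 78.4% of all genes tested and above 17.2% of the genes called higher, whose median log2 fold change was 1.28. It was thus among the weaker of the genes that passed.

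That call depended in part on single libraries, and was kept in 8 of 12 fits that left out a library. It was also kept in 9 of 9 fits with another tool, scaling, filter, set of groups or replicate block. It was lost without control input replicate 2 (log2 fold change 0.94, edgeR adjusted p = 0.0622) or replicate 4 (0.70, adjusted p = 0.136), and without control hnRNP A2 replicate 2 (0.91, adjusted p = 0.0635) or replicate 4 (0.74, adjusted p = 0.131). In all 12 fits that left out a library the direction stayed.

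In amyloid-β cultures the ratio was 1.61-fold in replicate 2, 0.676-fold in replicate 3 and 2.01-fold in replicate 4. The libraries overlapped, because amyloid-β input replicate 3 lay above 2 of the 3 amyloid-β hnRNP A2 libraries. The fitted difference was 1.24-fold (log2 fold change 0.31, SE 0.30, 95% interval 0.790-fold to 1.95-fold) and did not pass (edgeR adjusted p = 0.442), where 18.6% of genes were called higher and 20.5% lower. Hnrnpa2b1 lay above 61.3% of genes in this comparison. With voom the difference was larger and passed (log2 fold change 0.69, adjusted p = 0.0201), as it did with edgeR when number 3 was left out of all 4 groups (0.85, adjusted p = 0.0355).

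Whether amyloid-β changed the recovery over input was tested as an interaction. The ratio of hnRNP A2 to input was 0.672 times as large with amyloid-β as in control (log2 difference -0.57, SE 0.43, 95% interval 0.355 to 1.27), which did not pass (edgeR adjusted p = 1.000). The log2 difference was negative in all 12 fits that left out a library, from -0.74 to -0.17. edgeR called 0% of the genes tested, and 125 had an unadjusted p under 0.05. With the replicate block it called 0 genes, and 279 were under that level. DESeq2 and voom, run without the block, called 0 genes, and 146 and 298 were under that level. A pass in control and none with amyloid-β is therefore not a shown difference between the treatments.

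Scaling by library size alone moved all genes together in these comparisons. The median log2 fold change over all genes was then 0.65 in control and 0.48 with amyloid-β, in place of 0.02 and -0.01. Hnrnpa2b1 stood at 1.49 and 0.81 on that scale, which is 0.84 and 0.33 above those medians, against 0.86 and 0.32 with TMM scaling. Its place among all genes was the same to within 1 percentage point, at 77.9% and 61.4%. The split of genes called in control went from 2908 higher and 2814 lower to 5598 higher and 1042 lower, and with amyloid-β from 2845 and 3137 to 4766 and 1591.

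**Figure D3:**
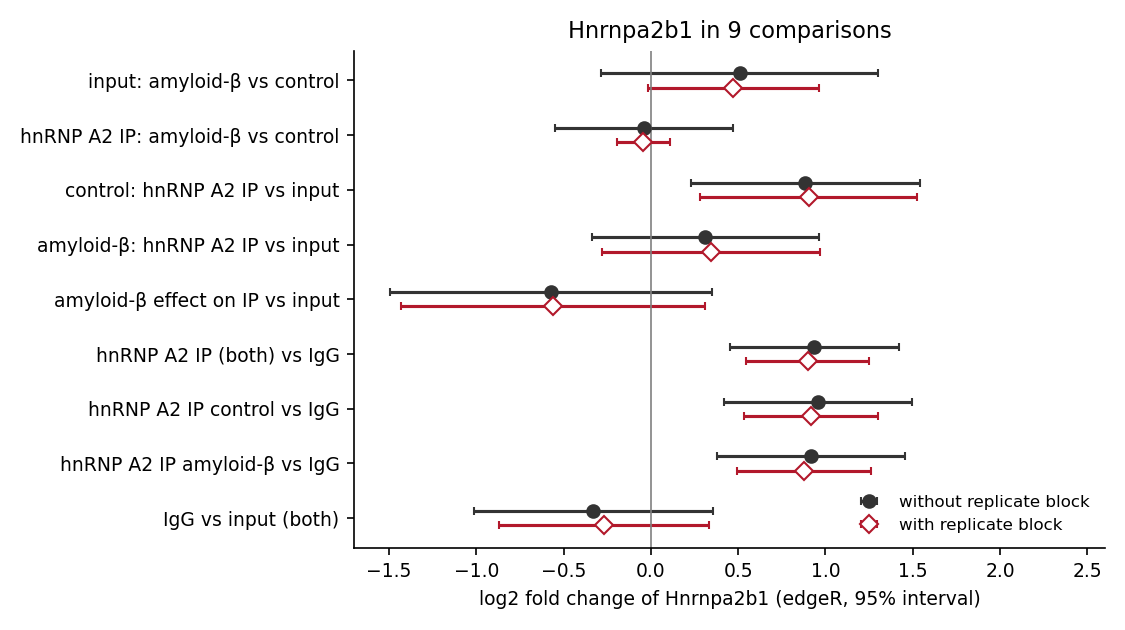
Log2 fold change of Hnrnpa2b1 in the 9 comparisons with its 95% interval, from edgeR without (filled circles) and with (open diamonds) the replicate number as a block. The intervals of the control immunoprecipitation against input and of the 3 comparisons with IgG lie above 0, and the other 5 span 0 in both fits.

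Each level is a share of its own library, not an amount of RNA recovered, and no measure of yield was used here. Within that limit, the comparison with IgG asks whether the mRNA made up a larger share with hnRNP A2 than in the background. Over both treatments it was 1.91-fold higher with hnRNP A2 than with IgG (log2 fold change 0.94, SE 0.22, 95% interval 1.37-fold to 2.68-fold), which passed (edgeR adjusted p = 0.0218 over 15304 genes). The ratio to the IgG library of the same number was 1.98, 1.70 and 2.36 in control replicates 2, 3 and 4, and 2.13, 1.54 and 2.24 with amyloid-β. It was above 1 in 6 of 6, but each IgG library serves in both sets and IgG replicate 2 rests on 23 counts. Of the genes tested 7.79% were called higher and 5.83% lower, and in 18.2% every hnRNP A2 library lay above every IgG library. Hnrnpa2b1 lay above 86.2% of all genes tested, and above 27.3% of those called higher, whose median log2 fold change was 1.14. Its place among all genes moved to 75.0% without IgG replicate 3, 72.7% with no low-count filter and 91.0% with voom. The shares of genes called hang on single libraries: without IgG replicate 4 the genes called fell from 2084 to 21, 7 higher and 14 lower. Leaving out replicate 3 of the hnRNP A2 libraries gave 1150 calls (control) or 1360 (amyloid-β), and leaving out replicate 4 gave 1063 or 969.

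This fit counts 3 replicate numbers as 6 hnRNP A2 samples. With same-numbered control and amyloid-β counts summed, 3 against 3, the size was the same and the call was lost (log2 fold change 0.92, edgeR adjusted p = 0.0862). It was also lost without IgG replicate 4 (0.99, adjusted p = 0.123), control hnRNP A2 replicate 4 (0.86, adjusted p = 0.0513) or amyloid-β hnRNP A2 replicate 4 (0.88, adjusted p = 0.0535). Without the shallow IgG replicate 2 it was kept, as it was with the replicate block (log2 fold change 0.90, edgeR adjusted p = 0.000309). On the same 6 hnRNP A2 samples it was also kept by DESeq2 (adjusted p = 0.00124) and voom (adjusted p = 0.0154). The block raised the number of genes called from 2084 to 5392. With the block and without IgG replicate 4 the log2 fold change was 0.73 (edgeR adjusted p = 0.00482). This fit, like that with summed counts, was not planned. It still counts both treatments of a number as separate hnRNP A2 samples.

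Set against IgG by treatment, control hnRNP A2 was 1.94-fold above IgG by edgeR, with an adjusted p of 0.0429 (log2 fold change 0.96, SE 0.25). Amyloid-β hnRNP A2 was 1.89-fold above it, with an edgeR adjusted p of 0.0451 (log2 fold change 0.92, SE 0.25). These comparisons share the IgG libraries. In them 4.25% and 4.51% of genes were called higher, and 2.48% and 3.03% lower. Without IgG replicate 4 edgeR called 0 genes in both, with 2514 and 2633 at an unadjusted p under 0.05. Other single omissions gave 0 (without control hnRNP A2 replicate 3, with 3211 at that level) to 1943 (without IgG replicate 3) calls in control, and 3 (without amyloid-β hnRNP A2 replicate 4) to 1944 (without IgG replicate 3) with amyloid-β. Both stood just inside the threshold: the control call was kept in 1 of 9 fits with a library left out, that without IgG replicate 2, and the amyloid-β call in 0 of 9, with adjusted p from 0.0481 to 0.182 and from 0.0507 to 0.171. The log2 fold changes stayed between 0.80 and 1.08 in control and between 0.79 and 1.09 with amyloid-β. With all libraries of the fit, DESeq2 gave adjusted p of 0.00612 in control and 0.00901 with amyloid-β, and voom 0.0220 and 0.0325. With the replicate block both passed (edgeR adjusted p = 0.000782 and 0.00109), and 4854 and 4963 genes were called in place of 1029 and 1153. That fit took its spread in part from the difference between both treatments of a number. The numbers also pair hnRNP A2 with IgG only weakly. Deviations from group means correlated at 0.12 to 0.25 for the same number and at up to 0.14 for different numbers.

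The IgG background itself held this mRNA. After TMM scaling the IgG mean was 226 CPM, against 249 CPM in control input and 354 CPM in amyloid-β input. As a plain share of gene counts it was 265 CPM, against 191 and 300 CPM. Against the mean of both inputs the log2 fold change was -0.33 (SE 0.32, 95% interval 0.495-fold to 1.28-fold), which did not pass (edgeR adjusted p = 0.468), and with library size alone it turned to 0.14. In this comparison 14.3% of genes were called higher and 16.3% lower. Hnrnpa2b1 lay above 42.6% of 14205 genes. Relative to the median of all genes it stood at -0.22 with TMM scaling and at -0.19 with library size alone. Without number 3 in all groups it stood at 0.11, above 53.1% of genes, and without number 4 at -0.43, so its place beside the median is not settled. Without IgG replicate 4 the genes called fell from 4341 to 2193, and Hnrnpa2b1 stood at -0.25.

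**Figure D4:**
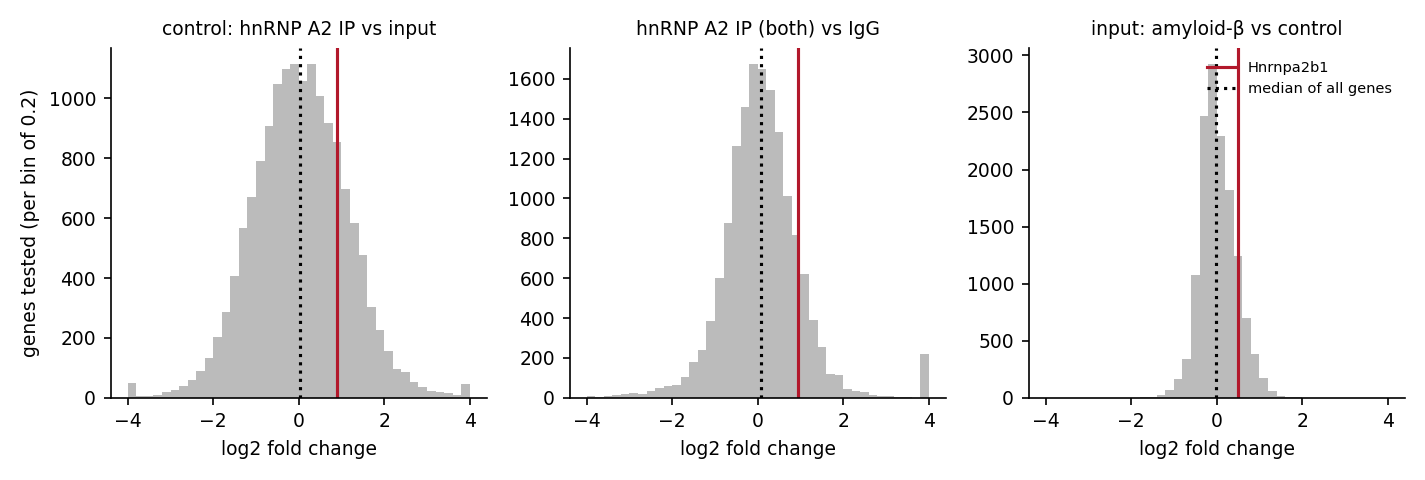
Log2 fold changes of all genes tested (grey, bins of 0.2, the end bins also holding values beyond 4 in size) with Hnrnpa2b1 (red line) and the median of all genes (dotted) in 3 comparisons. Hnrnpa2b1 stands at 0.89, 0.94 and 0.51, right of the median in each panel and inside the bulk of the genes.

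The replicate numbers ordered this mRNA in opposite ways in input and in the immunoprecipitation. In input, replicate 3 had the highest level and replicate 4 the lowest in both treatments. With hnRNP A2, replicate 4 had the highest level and replicate 3 the lowest in both treatments. The same orders held without TMM scaling. The ratio of hnRNP A2 to input was accordingly highest in replicate 4, at 3.18-fold in control and 2.01-fold with amyloid-β, and lowest in replicate 3, at 1.26-fold and 0.676-fold. Beside this, the 10 most abundant genes took the smallest share of input in replicate 3, 25.1% in control and 19.9% with amyloid-β, against 38.7% and 29.1% in replicate 4 and 41.6% and 30.4% in replicate 2. Their part in the order was not tested, and with 3 numbers the opposite orders have no test.

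Genes that moved most like Hnrnpa2b1 were sought over the 12 input and hnRNP A2 libraries, among 8941 genes with a mean of at least 10 CPM. The closest was ENSRNOG00000009836 (Pearson r = 0.98, Spearman rho = 0.90), followed by ENSRNOG00000012455 (Pearson r = 0.97, Spearman rho = 0.95). The correlation was on log2 CPM, and the points share libraries, replicate numbers and the step from input to immunoprecipitation. ENSRNOG00000009836 had 22.8, 24.9 and 13.8 CPM in control input replicates 2, 3 and 4, and 25.3, 47.8 and 24.1 CPM in amyloid-β input. With hnRNP A2 it had 47.8, 37.3 and 45.9 CPM in control and 48.7, 35.4 and 53.7 CPM with amyloid-β. ENSRNOG00000012455 had 63.9, 65.5 and 39.5 CPM in control input and 64.4, 91.2 and 55.4 CPM in amyloid-β input, and with hnRNP A2 86.3, 89.8 and 119 CPM in control and 88.9, 71.2 and 119 CPM with amyloid-β. Replicate 3 was the highest input library of both genes in each treatment, while the lowest control hnRNP A2 library was replicate 3 for the first gene and replicate 2 for the second. Both were picked for their likeness over these same libraries, so these orders are part of the choice. The IgG libraries were not used for it: there the first had 85.9, 17.4 and 27.5 CPM and the second 66.8, 46.4 and 41.4 CPM. The second lay below its 6 hnRNP A2 levels in each IgG library, as did Hnrnpa2b1 and 18.2% of all genes tested. The first did so in replicates 3 and 4 but not in the shallow replicate 2. Those hnRNP A2 levels were themselves part of the choice. Such likeness was not rare: 152 of these genes, 1.70%, had a Pearson r over 0.9 with Hnrnpa2b1. Over all 15 libraries 21 genes did, and neither of the closest 2 was among the closest 2 there.

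In the RefSeq gene table for the rat assembly GRCr8, no other listed gene overlaps Hnrnpa2b1, whose neighbours are Nfe2l3, a transcription factor gene, and Cbx3, which encodes heterochromatin protein HP1 gamma. The genome build and annotation behind the counts are not stated in the labels or processing notes. Reads shared with near-identical copies elsewhere in the genome could have been lost from the count of this gene, which was not tested.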

How the data were processed

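RNA-seq libraries of 15 samples were used, 3 in each of 5 groups, grouped by their titles. The deposited files hold raw read counts per Ensembl identifier, not normalized by the authors. The tools named in the submitters' processing notes, without their roles, are DESeq2, HTSeq, R 4.2.2 and STAR 2.7.1. Per the labels' protocols the library kit was stranded. The 5 summary rows that name no gene, 65.5% to 91.4% of records, were left out.

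Tests used edgeR 4.0.16 in R 4.3.3 (TMM, default expression filter, quasi-likelihood F test, Benjamini-Hochberg adjustment at 0.05 over all genes, no replicate term). The hnRNP A2 and input libraries were fitted together, as were hnRNP A2 and IgG, and IgG and input; treatment comparisons used their own 6 libraries. An SE is the log2 fold change divided by the square root of F. The script was tested on simulated counts.

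Alternatives used DESeq2 1.42.0, limma 3.58.1 (voom), other scalings and filters, all 15 libraries in 1 fit, a replicate block, and libraries left out. The gene and comparisons were chosen with earlier results of these data known. The rule named Hnrnpa2b1 and the 2 identifiers that correlated best with it; its lists by gene name (hnRNP family, transported mRNAs, cell type markers) could not be used, since 0 identifiers had a name in the RefSeq table.

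Replicate numbers were taken to pair the libraries because deviations from group means of same-numbered libraries correlated at 0.34 to 0.58 between input treatments, 0.53 to 0.80 between hnRNP A2 treatments, 0.15 to 0.55 between hnRNP A2 and input and 0.12 to 0.25 between hnRNP A2 and IgG. Differently numbered libraries reached 0.07, 0.27, 0.28 and 0.14 in these, so the last 2 overlap the same-numbered range. Between IgG and input they lay from -0.06 to 0.10, which does not pair them. Replicates are described as biological in the series' design text, and no pair of libraries in a group agreed within sampling noise (chi-square per degree of freedom at least 3.62).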

Additional observations from a re-analysis of the deposited data

How the results depend on the processing

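Every value against IgG replicate 2 rests on a library of 81463 gene counts. Values below are log2 fold changes of Hnrnpa2b1, and ranges cover the fits that left out a library or, as added after seeing the data, a replicate number in all groups. Its direction was kept in 7 of the 9 comparisons under every alternative run. Amyloid-β against control with hnRNP A2 ranged from -0.17 to 0.12, and was 0.0056 without number 3. Amyloid-β against control in input ranged from 0.13 (without amyloid-β replicate 3) to 0.70 and the interaction from -0.84 to -0.17. IgG against input turned to 0.14 with library size alone and otherwise stayed below 0. Control hnRNP A2 against input ranged from 0.56 (without number 4) to 1.13 (without number 3), and did not pass without number 2 (0.96) or number 4. Amyloid-β hnRNP A2 against input ranged from 0.012 (without number 4) to 0.85 (without number 3), and passed without number 3 and with voom (0.69). Against IgG the ranges were 0.83 to 1.10 for both treatments, 0.80 to 1.09 for control and 0.79 to 1.10 for amyloid-β. Without number 4 none of the 3 passed (0.83, 0.84 and 0.82), without number 3 none did (1.10, 1.09 and 1.10), and without number 2 amyloid-β did not (0.87). With all 15 libraries in 1 fit the control value was 0.97 and the amyloid-β value 0.93, neither past the threshold, and the summed libraries gave 0.92, not past it. The replicate block changed no call of Hnrnpa2b1. Genes called against IgG numbered 2084 in all, 5392 with the block, 319 with summed libraries, 843 without number 3 and 0 without number 4 (edgeR, with 1621 at an unadjusted p under 0.05; no other tool was run on that fit). Against IgG by treatment, 583 genes were called in control and 666 with amyloid-β in the fit of all 15 libraries, and voom called 1609 in control. The closest genes by correlation changed in part with a minimum of 1 CPM and in full over all 15 libraries. The cause of these differences was not tested.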
